A study of Mus musculus with 2 samples.

Results

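Genes of the ATF4 and unfolded protein responses and of the cytosolic tRNA synthetases were described in activated CD4 T cells of the Gfi1 wild type and Gfi1 knock out labels; Gfi1 encodes a zinc-finger repressor of transcription. The members were 44 genes listed by function, namely stress sensors, ATF4 and its target genes, chaperones of the endoplasmic reticulum (ER), enzymes of serine, proline, asparagine and folate metabolism, and synthetases that charge tRNAs. They were found by the gene symbol in the platform annotation, which names 20774 genes. Of the 44 genes, 43 had a named probe, and Dars, for which the annotation used here names no probe, was not analysed here.

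The samples were 1 culture labelled Gfi1 wild type and 1 labelled Gfi1 knock out, each hybridised to 1 single-colour mouse expression array. In both groups the cells were naive CD4 T cells (CD44low, CD62Lhigh, CD25negative) of C57BL/6 spleens, and both received the same stimulation for 2 days. The culture held IL-2 at 10 ng/ml, immobilized antibody to TCR-β at 3 µg/ml, antibody to CD28 at 1 µg/ml, and antibodies to IFN-γ and IL-4 at 5 µg/ml each. Whether the Gfi1 deletion was germline or limited to T cells, and how many animals gave cells, the labels do not say. With 1 array per genotype there is no spread between cultures and no test, and the differences below compare these 2 libraries. Each is a log2 difference with the wild-type label subtracted from the knockout label, taken once both arrays had been scaled to the 75th percentile of their probes.

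As background, cells respond to a shortage of amino acids and to misfolded protein in the ER through kinases that phosphorylate the translation factor eIF2. General translation then slows, while the transcription factor ATF4 is made and switches on genes for amino acid synthesis, amino acid transport and tRNA charging. The ER has further sensors, IRE1, which splices the Xbp1 mRNA, and ATF6, which is cut to release a transcription factor, and these raise ER chaperones. T cells that divide after stimulation need large supplies of amino acids and one-carbon units, and much of this gene set is known to be induced on activation. ATF4 and XBP1 are controlled largely by translation and by splicing, so the level of their mRNA is not a measure of their activity.

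Promoter sequences of some members are shown because they carry the letters through which these factors are known to act. Windows from 250 bases before to 50 bases after the start of a gene (RefSeq, GRCm38.p6) were held for 36 of the 44 members. Atf6, Cars, Hars, Lars, Nars, Rars, Vars and Wars were without one. Both strands were searched for the core of the amino acid response element, TGATGNAA, which ATF4 binds with C/EBP partners. The ER stress element (CCAAT and CCACG with 9 bases between them), the ER stress element II (ATTGG, any base, CCACG) and the core of the unfolded protein response element, TGACGTGG, were searched as well. No base lay in 2 of the matches. The capitals mark the matched letters, read 5′ to 3′ on the strand of the gene.
Asns: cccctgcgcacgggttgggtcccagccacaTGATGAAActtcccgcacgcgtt
Pycr1: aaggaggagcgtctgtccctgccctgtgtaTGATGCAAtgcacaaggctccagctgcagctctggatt
Chac1: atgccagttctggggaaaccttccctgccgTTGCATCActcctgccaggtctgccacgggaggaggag
Trib3: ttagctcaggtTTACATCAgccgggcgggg
Yars: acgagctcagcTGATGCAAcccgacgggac
Herpud1: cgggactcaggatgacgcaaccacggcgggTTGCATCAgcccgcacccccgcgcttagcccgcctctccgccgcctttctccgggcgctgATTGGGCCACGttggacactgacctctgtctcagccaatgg
Hspa5: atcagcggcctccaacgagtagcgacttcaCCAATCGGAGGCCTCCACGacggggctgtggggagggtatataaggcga

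The stretch of Asns lies at chr6:7693210-7693262 on the minus strand, that of Pycr1 at chr11:120643814-120643881 (minus) and that of Chac1 at chr2:119351019-119351086 (plus). Trib3 was read at chr2:152344028-152344057 (minus) and Yars at chr4:129189895-129189924 (plus), both with the match just after the annotated start. Herpud1 was read at chr8:94386287-94386417 (plus) and Hspa5 at chr2:34771995-34772073 (plus). In Chac1, Trib3 and Herpud1 the amino acid response element core stands on the other strand, so that the printed letters are its reverse complement.

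The amino acid response element core was present in the windows of 10 of 36 members (27.8%), and in those of 4.51% of the 27025 genes with a window. These members were Trib3, Chac1, Herpud1, Asns, Pycr1, Aars, Gars, Iars, Tars and Yars. The form TGATGCAA, on either strand, was found in 7 of them, TGATGAAA in 3 (Asns, Gars and a second match in Aars) and TGATGTAA in Trib3. The ER stress element matched in Hspa5 and in Hsp90b1, the latter with 2 matches, against 0.137% of all genes, and the ER stress element II in Herpud1 alone (0.0444% of all genes). The unfolded protein response element core matched in 0 of the 36 windows and in 0.714% of all genes. Many members were listed as known targets of these factors, so these shares describe the list and do not test it.

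**Figure D1:**
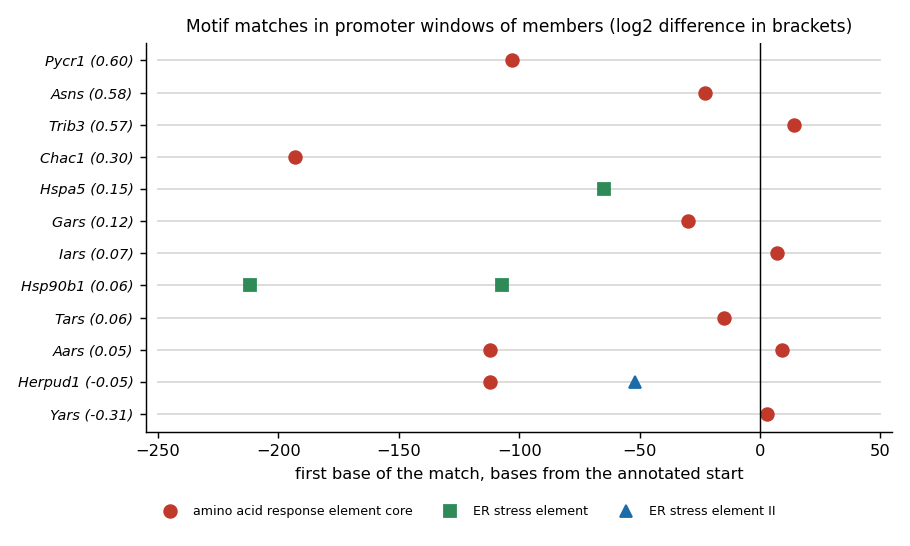
Position of each motif match in the promoter windows of the 12 members that hold one, in bases from the annotated start (x axis), ordered by the log2 difference of the gene, which stands beside its symbol. The 10 genes with the amino acid response element core span differences from -0.31 (Yars) to 0.60 (Pycr1).

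Each array gave 59305 spots, and the 75th percentile of its probes was 263 units for the wild-type label and 269 units for the knockout label. Members were read by 53 probes, each on a single spot, of which 51 were detected, that is, above the array's median over probes (14.2 and 14.6 units). All 43 annotated members were detected on both arrays, and 38 reached 500 units on at least 1 of them. Among the 399 probes with 10 spots each, differences had a median SD of 0.11 at 50 to 500 units (63 probes), 0.05 at 500 to 5000 (103 probes) and 0.04 at 5000 to 50000 (39 probes). This spread covers the spots of an array and no difference between cultures. The Gfi1 probe itself was 4.15-fold brighter in the library labelled knockout (4260 and 18100 units). Its only spot has a feature number above 50000, so it has no value without such spots. If it lies inside the deleted part of the gene, this reading goes against the labels, and if it lies outside it checks neither of them; its place is not given, and directions rest on the labels throughout. The female transcript Xist read 447 and 3.86 units and the Y-linked Eif2s3y 2.91 and 3870 units, so that genotype by label and sex cannot be told apart in any value below.

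The members differed little between the libraries. Their median difference was 0.07, with a middle 50% from -0.03 to 0.22, against a median of -0.05 and a middle 50% from -0.20 to 0.14 over all 13417 detected genes. Of the 43 members 31 stood above 0 and 12 below, and 35 stood above the median of all genes. This is 72.1% above 0, against 41.6% of all detected genes. At a difference of at least 1.5-fold, 2 members were higher (Atf6 and Pycr1), where 7.68% of all detected genes were, and 1 was lower (Ern1), where 4.26% were. With quantile normalization, cyclic loess or no scaling 4 members were higher, Asns and Trib3 included, where 7.88%, 8.78% and 8.13% of all genes were. With an offset of 16 units 0 were (Atf6 at 0.54, Pycr1 at 0.52), where 5.81% of all genes were. With a floor raised to the 75th percentile 0 were as well, where 4.14% of all genes were. Under that floor 38 members kept a value, and Atf6, Pycr1 and Ern1 had none. Without spots above feature number 50000 Ern1 had no value either. In these last 2 settings 0 members were lower, where 1.3% and 3.65% of all genes were. No member reached 2-fold in either direction, a size reached by 3.61% of all genes upward and 1.53% downward. All 3 members past 1.5-fold were read at 89.1 to 153 units. Among the 38 members at 500 units or more, 0 passed 1.5-fold, and among the 6832 genes at that level 4.54% were higher and 1.19% lower.

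A difference below 0.2 in size was found for 28 members (65.1%). The share was 54.9% over all detected genes and 65.7% over genes at 500 units or more. Differences of 0.3 or more covered 8 members, and -0.3 or less 2 members, Ern1 and Yars. Over all detected genes, 15% and 14.1% reached these sizes upward and downward. Of the 38 members at 500 units or more 6 reached 0.3 and 0 reached -0.3, where 9.66% and 8.62% of all genes at that level did. The difference exceeded 2 SD of replicate spots at the same signal for 26 of the 43 members. How many of all detected genes exceeded that limit was not counted, so this number does not set the members apart from them. For 8 members with 2 detected probes the SD between probes ran from 0.005 (Shmt1) to 0.13 (Dnajb9), with a median of 0.05, and in 6 of them both probes lay on the same side of 0.

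**Figure D2:**
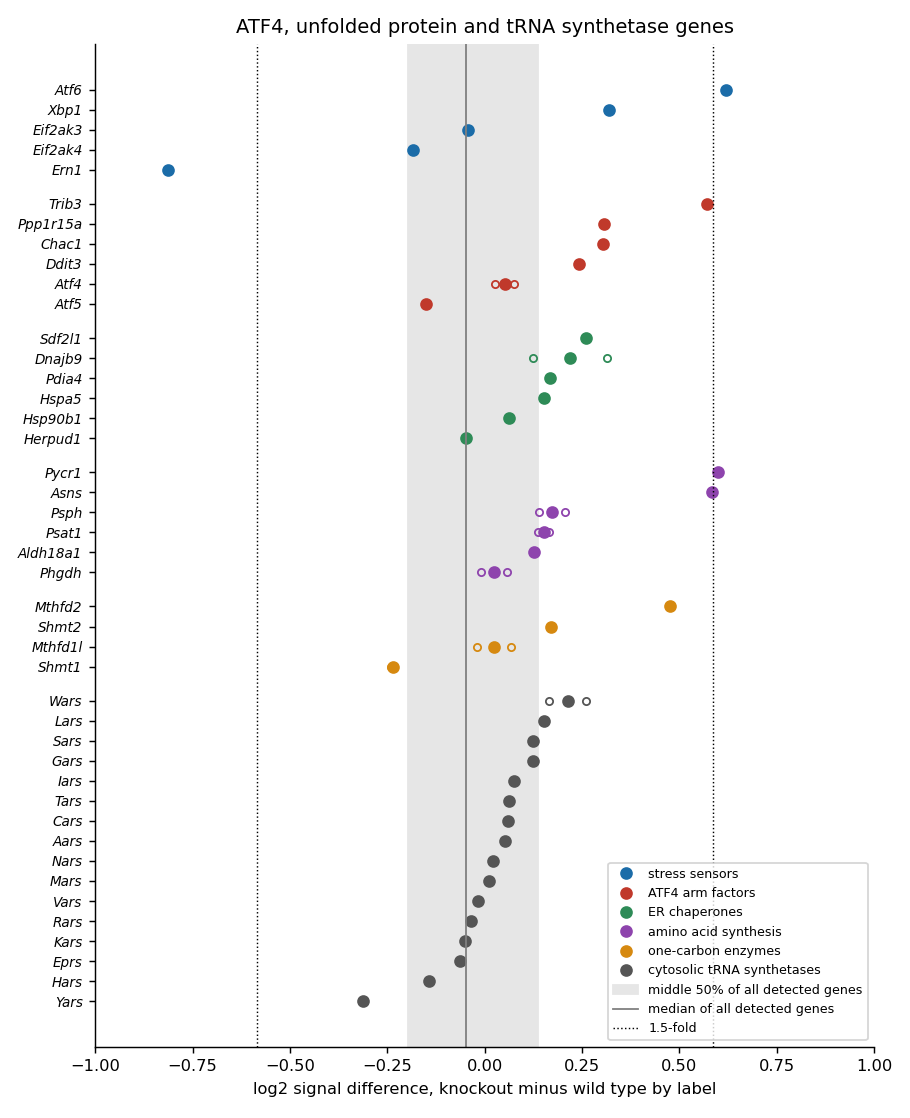
Log2 difference of each member (x axis, knockout label minus wild-type label), grouped by role; filled points are genes and open points their probes where a gene has 2 detected ones. The grey band holds the middle 50% of all detected genes and the dotted lines mark 1.5-fold; Atf6 and Pycr1 lie past the right line and Ern1 past the left.

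**Figure D3:**
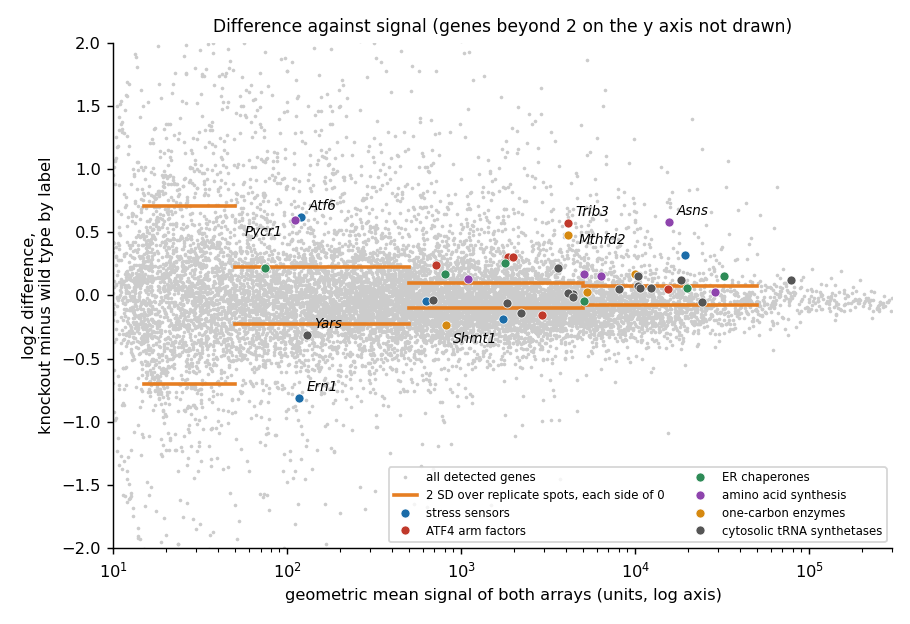
Log2 difference (y axis) against the geometric mean signal of the arrays in units (log axis) for all detected genes (grey) and the members (coloured by role); 184 genes beyond 2 in size are not drawn. The orange lines mark 2 SD over replicate spots, which narrow from 0.35 per SD at 15 to 50 units to 0.04 at 5000 to 50000 units, and Asns, Trib3 and Mthfd2 lie far above them.

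The sensors of ER and amino acid stress did not move one way. Atf6, which encodes the membrane-bound factor cut in the Golgi, read 95.5 units under the wild-type label and 150 units under the knockout label, a difference of 0.62 (1.54-fold higher). Ern1, which encodes the kinase and nuclease IRE1, read 153 and 89.1 units, a difference of -0.81 (1.76-fold lower). These were the highest and the lowest of all members, at 5.5 and 7.2 times the SD of replicate spots, and both rest on 1 dim spot. The Ern1 spot has a feature number above 50000, a range where 1.5-fold differences covered 17.7% of spots at 50 to 500 units, while they covered 10.9% of such spots elsewhere; what this does to the Ern1 value was not tested.

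Xbp1, whose mRNA is the substrate of IRE1, read 17100 and 21800 units, a difference of 0.32. The probe does not separate spliced from unspliced mRNA as far as the files tell. Eif2ak3, which encodes the ER-stress kinase PERK, read 631 and 626 units, a difference of -0.04 that lies within the SD of replicate spots. Eif2ak4, which encodes GCN2, the kinase that senses uncharged tRNA, read 1820 and 1640 units, a difference of -0.18. The library labelled knockout was thus brighter for Atf6 and Xbp1, dimmer for Ern1 and Eif2ak4 and level for Eif2ak3. The median of these 5 genes, with Xbp1 counted beside the sensors, was -0.04, close to that of all genes. Without spots above feature number 50000, where Ern1 has no value, it was 0.13 over the other 4.

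Genes of the ATF4 arm stood mostly above 0, although Atf4 itself hardly differed. Atf4 was read by 2 probes, at 2590 and 86500 units under the wild-type label and 2700 and 93100 units under the other, with a mean difference of 0.05 ± 0.03 (SD over 2 probes). Trib3, a pseudokinase that restrains ATF4 and AKT, read 3340 and 5070 units, a difference of 0.57 (1.48-fold higher) and 11.9 times the SD of replicate spots. This difference lay at percentile 92.1 of those of all detected genes. Chac1, which degrades glutathione, read 1640 and 2070 units (0.30).

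The other 3 members of this arm lay between -0.15 and 0.31. Ppp1r15a, which encodes GADD34, the phosphatase subunit that reverses eIF2 phosphorylation, read 1770 and 2240 units (0.31). Ddit3, which encodes the pro-apoptotic factor CHOP, read 646 and 782 units (0.24). Atf5, a factor related to ATF4 whose translation is controlled in a like way, read 3020 and 2780 units and was the only one of the 6 below 0 (-0.15). The median of the group was 0.27, the highest among the 6 role groups.

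Chaperones and helpers of the ER showed small differences, 5 of 6 above 0. Hspa5, which encodes BiP, the main ER chaperone and a standard readout of the unfolded protein response, read 30300 and 34400 units, a difference of 0.15 (1.11-fold). Hsp90b1, which encodes GRP94, read 19200 and 20500 units (0.06). Both promoters hold the ER stress element. Sdf2l1, a cofactor of BiP, stood at 0.26 (1600 and 1960 units), Pdia4, a disulfide isomerase, at 0.17 (747 and 858 units), and Dnajb9, a BiP co-chaperone and XBP1 target, at 0.22 ± 0.13 over 2 probes, 1 of them read at 25.7 and 32.7 units. Herpud1, which serves ER-associated degradation and holds matches to both the amino acid response element core and the ER stress element II, read 5060 and 5010 units, a difference of -0.05. The median of the group was 0.16, and all 6 stood above the median of all genes, Herpud1 by only 0.002.

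All 6 enzymes of amino acid synthesis stood above 0. Asns, which encodes asparagine synthetase, a classical ATF4 target, read 12600 units under the wild-type label and 19300 units under the knockout label. This difference of 0.583 lay just under the 1.5-fold limit of 0.585 and was 14.9 times the SD of replicate spots, the highest such ratio of all members. Pycr1, the last enzyme of proline synthesis, stood just past the limit at 0.60 (89.1 and 138 units). A different Pycr1 probe was undetected at 5.31 and 6.20 units, and with this probe included Pycr1 stood at 0.40.

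The remaining enzymes differed less. Aldh18a1, which starts proline synthesis, stood at 0.13 (1030 and 1150 units). The serine pathway was read by 2 probes for each enzyme. Phgdh, its first enzyme, stood at 0.02 ± 0.05, Psat1 at 0.15 ± 0.02 and Psph, its last enzyme, at 0.17 ± 0.05. Phgdh read 31100 and 25200 units against 31600 and 26800 units, with 1 probe on each side of 0. The median of the 6 enzymes was 0.16.

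Among one-carbon enzymes 3 of 4 members stood above 0, Mthfd1l by only 0.02, where 41.6% of all detected genes stood above 0. These 3 were the mitochondrial members, and the cytosolic member stood below 0. Mthfd2, the mitochondrial dehydrogenase and cyclohydrolase known as strongly induced in proliferating cells, read 3440 and 4890 units, a difference of 0.47 (1.39-fold) and 9.9 times the SD of replicate spots. Shmt2, the mitochondrial serine hydroxymethyltransferase, read 9290 and 10700 units (0.17). Mthfd1l, which releases formate from mitochondria, stood at 0.02 ± 0.06 over 2 probes. Shmt1, the cytosolic counterpart of Shmt2, read 1720 and 441 units against 1490 and 384 units on its 2 probes, a difference of -0.24 ± 0.005. Mthfd1, the cytosolic trifunctional enzyme, which is no member, stood at -0.26 (9980 and 8530 units). Aldh1l1, a cytosolic enzyme that oxidises formyl-folate, ran the other way at 1.03 (118 and 247 units), and its mitochondrial relative Aldh1l2 at 1.00 (24.1 and 49.3 units); both were read by 1 dim spot. These 3 come from a list of further folate and amino acid enzymes, with a median of -0.06 over 14 detected genes, 6 above 0 and 8 below. Of the 14, the pair just given passed 1.5-fold upward and 0 downward, beside 7.68% and 4.26% of all detected genes.

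The cytosolic tRNA synthetases, which attach amino acids to tRNAs, lay close to 0 as a group. Their median was 0.04 over 16 genes, 10 above 0 and 6 below, and 14 of 16 differed by less than 0.2 in size. Wars, the tryptophan enzyme, known to be induced by interferon-γ, was the highest at 0.21 ± 0.07 (SD over 2 probes, 13600 and 801 units against 15600 and 982 units). Its dimmer probe has a feature number above 50000, and without such spots Wars stood at 0.16 and Lars, the leucine enzyme, at 0.15. Yars, the tyrosine enzyme, was the lowest at -0.31 (142 and 117 units), and the only synthetase read below 500 units on both arrays.

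The others lay between these ends. Lars (leucine) stood at 0.15 (9680 and 11000 units), Gars (glycine) at 0.12 (74400 and 82900 units) and Sars (serine) at 0.12 (17400 and 19400 units). Iars, Tars, Cars and Aars, for isoleucine, threonine, cysteine and alanine, stood at 0.07, 0.06, 0.06 and 0.05, Nars (asparagine) at 0.02 and Mars (methionine) at 0.01. Vars (valine), Rars (arginine), Kars (lysine) and Eprs (glutamate and proline) stood at -0.02, -0.04, -0.05 and -0.06, and Hars (histidine) at -0.14. The 5 synthetases with the amino acid response element core in their window, Aars, Gars, Iars, Tars and Yars, thus included both small positive values and the lowest value.

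Synthetases of mitochondria stood lower than those of the cytosol. Of 15 detected mitochondrial synthetases 13 were below 0 and 2 above, where 41.6% of all detected genes were above 0. Their median was -0.20, and 3 stood above the median of all genes. Lars2 was the lowest (-0.41, 2120 and 1630 units), followed by Cars2 (-0.36 ± 0.01, 2 probes) and Vars2 (-0.36 ± 0.01, 2 probes). Of the 15, 0 passed 1.5-fold, where 7.68% of all detected genes did upward and 4.26% downward. For 12 amino acids a cytosolic member and a mitochondrial enzyme with the same symbol stem were both detected, and in 9 of these pairs the cytosolic enzyme had the higher difference. Eprs, at -0.06, stood above its mitochondrial counterparts Ears2 (-0.15) and Pars2 (-0.10 ± 0.20, 2 probes), for Pars2 within the SD between its probes. Over the 12 pairs the difference between the differences had a median of 0.23 and ran from -0.17 (Yars against Yars2) to 0.56 (Lars against Lars2). Further genes of cytosolic charging, 2 subunits of the phenylalanine enzyme (Farsa and Farsb), Qars and 3 cofactors of the multi-synthetase complex, had a median of -0.01 over 6 genes, with Eef1e1 the highest at 0.40 (3510 and 4730 units).

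Members with and without the amino acid response element core overlapped over most of their range. The 10 with a match had a median of 0.10 and the 25 detected ones with a window and no match a median of 0.12. The 3 highest of the former, Pycr1, Asns and Trib3, stood at 0.60, 0.58 and 0.57, and the highest of the latter was Mthfd2 at 0.47. Atf6, with the highest difference of all members, was among those without a window.

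Other genes of the same pathways were taken from lists by function. Of 20 detected further ATF4 targets 12 stood above 0 and 8 below, with a median of 0.15. At 1.5-fold 2 of the 20 were higher and 2 lower, beside 7.68% and 4.26% of all detected genes. The higher ones, Vldlr, a lipoprotein receptor (117 and 337 units, 2.82-fold), and Nupr1, a stress-induced chromatin protein (325 and 742 units, 2.23-fold), passed 2-fold, as 3.61% of all detected genes did. The lower ones were Stc2, a secreted glycoprotein (629 and 381 units, 1.69-fold lower), and Cbs, an enzyme of cysteine synthesis (249 and 151 units, 1.69-fold lower). Upward this list reached beyond every member of the module, and downward it stopped short of Ern1.

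Further ER chaperones and genes of ER-associated degradation had a median of -0.01 over 22 genes, 10 above 0 and 12 below. Ero1l, an ER oxidase also known to be induced by hypoxia, was 1.72-fold higher (313 and 551 units, on a spot above feature number 50000) and Derl3, a channel subunit for degradation, 1.63-fold lower (703 and 442 units). At 1.5-fold 1 of the 22 was thus higher and 1 lower, beside 7.68% and 4.26% of all detected genes. Calr and Canx, the lectin chaperones, stood at -0.13 and -0.16. Genes of the eIF2 pathway had a median of -0.12 over 15 genes, 12 of them below 0 and 3 above, where 41.6% of all detected genes were above 0. The highest was Eif2ak2, which encodes PKR, an eIF2 kinase induced by interferon, at 335 and 820 units (2.39-fold higher). Of the 15 genes it alone passed 1.5-fold and 2-fold, sizes reached upward by 7.68% and 3.61% of all detected genes. Among ATF6-related genes, Creb3l2, a membrane-bound factor, was 1.52-fold higher (84.9 and 132 units), and Mbtps1, the protease that first cuts ATF6, stood at -0.47 ± 0.14 (2 probes). Of the 7 ATF6-related genes 1 passed 1.5-fold upward and 0 downward, beside 7.68% and 4.26% of all detected genes. The median of these 7 genes was 0.19, which turned to -0.18 when the floor was raised to the 75th percentile and to -0.001 without spots above feature number 50000.

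**Figure D4:**
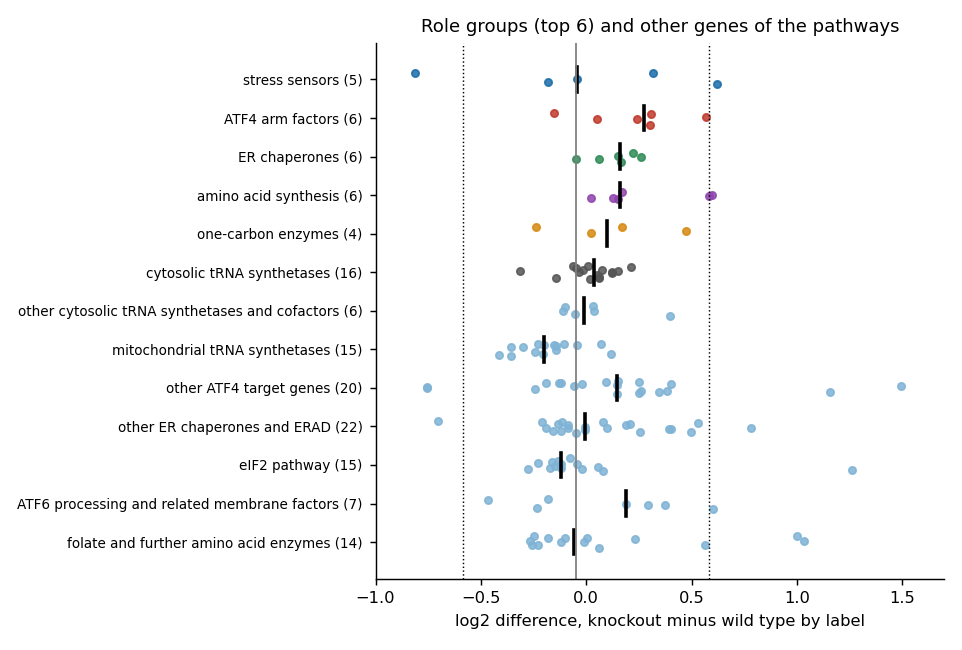
Log2 difference (x axis) of each gene in the 6 role groups of the module (top) and in 7 lists of other genes of the same pathways (bottom), with the number of detected genes in brackets; black bars are medians, the grey line is the median of all detected genes and the dotted lines mark 1.5-fold. The ATF4 arm has the highest median (0.27) and the mitochondrial synthetases the lowest (-0.20).

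Markers of other cells differed between the libraries and stand beside these values. All 9 listed CD8 T and NK cell markers were higher in the library labelled knockout, with summed signals of 1867 and 4737 units. Nkg7 (968 and 2076 units) and Eomes (649 and 1843 units) made up most of both sums. Cd8a, Klrb1c, Klrk1 and Ncr1 were undetected under the wild-type label. Under the knockout label these genes read 18.2 to 34.9 units, where the floor was 14.6 units. Of the B cell markers 5 of 6 detected ones were higher (summed signals of 528 and 1122 units), with Pax5 below the floor on both arrays. Ms4a1 (18.9 and 221 units) and Blnk (30.6 and 386 units) had the largest differences among them and account for most of the gap between the sums. Cd79a, Cd22 and Cr2 were 1.33-fold, 1.29-fold and 1.19-fold higher, and Cd79b was lower (281 and 256 units). The 9 CD4 T cell markers with a named probe were detected on both arrays, Cd4 and Cd3e among them; 7 were lower and 2 higher (summed signals of 187055 and 159667 units). Myeloid markers were 3 higher and 2 lower, with summed signals of 337 and 663 units; Mpeg1, read at 11.7 and 335 units, accounts for most of this gap, and Cd14, Fcgr3 and Lyz2 lay below the floor on both arrays. Their part in the values of the module was not tested, and in such bulk RNA more cells of a type and more RNA per cell cannot be told apart.

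Plasma cells are rich in ER chaperones and Xbp1. Of their 8 listed markers 5 were detected, 3 higher and 2 lower, with summed signals of 19420 and 24547 units that include Xbp1 at 17100 and 21800 units. Igj and Tnfrsf17 lay below the floor on both arrays, and Sdc1 stood at -0.43 (109 and 83.0 units). Interferon-stimulated genes were the contrast to the module. All 16 detected ones were higher in the library labelled knockout, 12 of them by at least 2-fold, where 3.61% of all detected genes were. Their median was 2.20 (1.69 under a floor at the 25th percentile and 1.03 under one at the 75th), and Usp18, Isg15 and Oasl2 stood at 3.79, 3.30 ± 0.09 (2 probes) and 3.17. Wars and Eif2ak2, which interferon is known to induce, stood at 0.21 and 1.26 in the same libraries.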

How the data were processed

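Intensity per spot was taken from the column headed as raw in the deposited per-array tables, linear and given to 3 significant digits. Per the submitters' processing notes Agilent Feature Extraction 11.5.1.1 was used; the background correction is not stated, and the tables used hold neither flags nor background columns. A second intensity table by the authors equals these values times about 2.27 and 2.26 (column medians 34.4 and 34.8); its scale factor is unexplained, and it served as an alternative. Log2 signals were averaged over spots of a probe and scaled to the array's 75th percentile; values below the array's median over probes were set to that floor, and probes detected on at least 1 array were averaged per gene. Signals of genes with several probes are geometric means unless given per probe. Symbols are those of the platform annotation. No test was possible with 1 array per genotype.

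Members, lists and the 1.5-fold size were chosen with earlier results of these data known. Named are all members, Gfi1, and of each other list up to 3 genes each way past 1.5-fold; Xist, Eif2s3y, Mthfd1, Lars2, Cars2, Vars2, Yars2, Ears2, Pars2, Eef1e1, Farsa, Farsb, Qars, Calr, Canx, Mbtps1 and the single cell markers were chosen after their values were seen. Scaling, floor and averaging per gene in the main setting, with counts past 1.5-fold and 2-fold, first ran on simulated data with known changes. The simulated data were built on the signal levels of these arrays. Motif search, lists, spot-noise ratios, synthetase pairs and alternatives were not run on them. Alternatives were 4 scalings, the second table, 3 floors, 2 probe summaries, an offset of 16 units and leaving out spots above feature number 50000. Software was Python 3.11.15, pandas 2.3.3, numpy 2.4.6, matplotlib 3.10.9 and statsmodels 0.14.6.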

Additional observations from a re-analysis of the deposited data

How the results depend on the processing

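Over 12 alternatives the members' median stayed between 0.07 and 0.13, and 0 members reached 2-fold under any of them. Of 510 member values under the alternatives, 506 moved by less than the median SD between probes of a gene (0.10), 4 moved by more (Pycr1, in both settings that include its undetected probe, Dnajb9 and Ern1) and 0 turned from a call in one direction to the other. Scaling shifted the median of all genes by at most 0.06, and 38 of 43 members kept their sign under all 4 scalings. Eif2ak3, Herpud1, Kars, Rars and Vars crossed 0 under cyclic loess, and Vars also without scaling. Under quantile normalization Vars stood at 0.0 after rounding. Mthfd1l and Phgdh crossed 0 with the brightest probe. The count of members at least 1.5-fold higher, 2 in the main setting (7.68% of all genes), was 4 with quantile normalization, cyclic loess or no scaling (7.88%, 8.78% and 8.13%), as Asns and Trib3 lie next to the limit. It was 1 under a 25th percentile floor (11.4%) or no floor (9.77%). It was 0 under a 75th percentile floor (4.14%), where Atf6 and Pycr1 have no value, or an offset of 16 units (5.81%). The count at least 1.5-fold lower, 1 in the main setting (4.26%), was 0 under the 75th percentile floor (1.3%) and without spots above feature number 50000 (3.65%), where Ern1 has no value. The median of the sensor group, Xbp1 included, was 0.13 without those spots. The median of the ATF6-related list was -0.18 under the 75th percentile floor and -0.001 without spots above feature number 50000. That of the interferon-stimulated genes was 1.69 under the 25th percentile floor and with no floor, 1.03 under the 75th percentile floor and 1.89 with an offset of 16 units. Except where said, the cause was not tested. Single spots and 1 array per genotype limit the precision, and no replicate could be left out. No paired analysis was possible because the labels give no replicate numbers and each genotype has 1 array.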
